A study of Mus musculus with 8 samples.

Results

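Cadherins and protocadherins are cell surface proteins whose genes are named by the symbols Cdh followed by a number and Pcdh. Every gene with such a symbol that had at least 1 probe set naming it alone on the oligonucleotide arrays was taken, which gave 56 genes with 101 probe sets, of 18193 genes named by the arrays. They comprised 21 cadherins and 35 protocadherins, and 26 of the 56 lie on chromosome 18, 2 on chromosome X, 4 on chromosome 14 and 8 on chromosome 8. Each gene was represented by its probe set with the highest mean signal over all arrays, and 44 of the 56 were above a filter that left out the dimmest 30% of probe sets. The other 12 were not tested, with array signals between 0.212 and 30.02 in linear units: Cdh1 and Cdh3 of the type I cadherins, Cdh18 and Cdh19 of type II, Cdh17, Cdh26, Pcdh1 and 5 genes of the beta cluster, Pcdhb1, Pcdhb4, Pcdhb6, Pcdhb14 and Pcdhb18.

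RNA came from the telencephalon of mice that carried mutations of Dlx1 and Dlx2, a pair of adjacent homeobox genes whose products act in the ventral forebrain. By the sample titles the regions were basal ganglia (BG) and cortex (Ctx), with genotypes +/- and -/-, which made 4 groups of 2 arrays each, BG +/-, BG -/-, Ctx +/- and Ctx -/-, numbered 2 and 3. All groups carried at least 1 mutant allele, so no wild-type sample stood beside them. Strain, age, the number of animals behind an array and the nature of the mutant alleles are not stated in the labels. Nothing says that arrays 2 and 3 of a group came from separate animals, so p-values cover array-to-array spread that may be technical. Dlx1 signals were 1232 and 1237 in BG +/- against 3.67 and 15.5 in BG -/-, and 138 and 137 in Ctx +/- against 2.42 and 1.74 in Ctx -/-, so the genotype labels matched the targeted gene on every array. The source field of the labels reads blood and adrenal medulla, against the region given for each sample. Of 11 tested markers of the basal ganglia anlage, 11 were higher in BG +/- than in Ctx +/-, and of 11 cortical markers 10 were lower, and of 5 adrenal medulla markers 1 was higher. None of the 5 differed by genotype in either region.

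Cadherins bind their like on the neighbouring cell through calcium-dependent extracellular repeats. Classical cadherins, of type I and type II, couple to catenins and actin, and in the embryonic forebrain different type II cadherins mark different territories and cell groups. Delta protocadherins lack the catenin-binding tail and act in cell sorting, migration and axon growth. The clustered protocadherins lie in neighbouring alpha, beta and gamma arrays, and each neuron uses a few of them. Alpha and gamma variable exons are spliced to constant exons shared within their cluster, while beta genes consist of a single exon each.

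DLX proteins recognise sites with the core letters TAATT, so the stretches upstream of the genes that passed the genotype test are shown where a RefSeq promoter table (GRCm38.p6) held them. Windows were taken for 20 of the 56 genes, among them 5 of the 7 that passed in BG. Each window covers the 250 bases before an annotated start on the gene's own strand, 5′ to 3′, and capitals mark TAATT or its overlapping 6-base extension TAATTA. Both strands were searched. Cdh7, Cdh10 (at -153 from the start) and Pcdh18 (at -238) held a match, while Pcdh9 and Pcdh8 held none. For Cdh7 the third of its 3 annotated windows is shown (chr1:109983473-109983722, + strand), since the other two had no match. The windows of Cdh10 (chr15:18820079-18820328, + strand), Pcdh18 (chr3:49757317-49757566, - strand), Pcdh9 (chr14:93890680-93890929, - strand) and Pcdh8 (chr14:79771313-79771562, - strand) follow it.
Cdh7: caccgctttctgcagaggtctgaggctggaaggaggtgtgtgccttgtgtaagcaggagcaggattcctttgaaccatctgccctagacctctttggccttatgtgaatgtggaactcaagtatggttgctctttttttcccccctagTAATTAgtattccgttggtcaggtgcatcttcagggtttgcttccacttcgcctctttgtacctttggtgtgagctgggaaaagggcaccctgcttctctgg
Cdh10: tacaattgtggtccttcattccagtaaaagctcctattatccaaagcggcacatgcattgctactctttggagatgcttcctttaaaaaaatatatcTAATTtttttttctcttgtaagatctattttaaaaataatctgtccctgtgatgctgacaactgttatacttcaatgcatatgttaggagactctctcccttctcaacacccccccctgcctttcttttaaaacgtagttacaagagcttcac
Pcdh18: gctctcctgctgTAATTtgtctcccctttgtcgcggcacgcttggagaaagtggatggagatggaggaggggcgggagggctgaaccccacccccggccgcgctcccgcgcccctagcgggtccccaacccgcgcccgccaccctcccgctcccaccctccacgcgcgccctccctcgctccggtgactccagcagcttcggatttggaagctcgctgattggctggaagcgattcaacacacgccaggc
Pcdh9: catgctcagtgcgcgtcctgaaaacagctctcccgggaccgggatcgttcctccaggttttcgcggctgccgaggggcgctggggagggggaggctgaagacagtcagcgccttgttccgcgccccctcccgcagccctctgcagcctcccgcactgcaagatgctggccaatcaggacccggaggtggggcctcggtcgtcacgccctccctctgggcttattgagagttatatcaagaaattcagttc
Pcdh8: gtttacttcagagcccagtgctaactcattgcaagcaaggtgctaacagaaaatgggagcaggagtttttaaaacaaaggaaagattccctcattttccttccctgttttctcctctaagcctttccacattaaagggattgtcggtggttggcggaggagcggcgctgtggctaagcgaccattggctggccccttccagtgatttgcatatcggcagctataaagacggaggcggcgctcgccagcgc

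Over these 20 genes, 7 of 23 windows held TAATT and 1 of 23, of Cdh7, held TAATTA, or 30.43% and 4.35%. Of all 32851 windows in the table, from which no chromosome was left out, 25.03% held TAATT and 4.84% held TAATTA. The 20 genes include no gene of the beta cluster and no other member on its chromosome. The member shares thus leave out a chromosome that the shares of all windows and all genes keep. Counted by gene with any of its windows, the shares were 7 of 20 members (35%) against 27.83% of 27025 genes for TAATT, and 1 of 20 (5%) against 5.65% for TAATTA. A match is a description of letters and not a site.

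The first comparison asked how the genes differ between -/- and +/- basal ganglia. Of the 44 tested, 6 were higher in BG -/- and 1 was lower (limma on log2(signal + 16), Benjamini-Hochberg adjusted p under 0.05 over all probe sets kept). The higher ones were the type II cadherins Cdh7, Cdh10 and Cdh11 and the delta protocadherins Pcdh9, Pcdh11x and Pcdh18, and the lower one was the delta protocadherin Pcdh8. That is 15.9% of the tested members, against 7.82% of all 13627 genes tested in this comparison, with 13.6% against 4.76% for higher and 2.27% against 3.05% for lower. The median log2 change of the 44 was 0.27 and that of all genes -0.08. With each array centred on its median, 5 members were higher and 1 lower, where 8.89% of all genes were called. The share of higher among all genes called in BG moved from 60.9% to 37.7%. The signals of both BG -/- arrays lay above both BG +/- arrays for 25 members (56.8%, against 23.8% of all genes) and below them for 5 (11.4%, against 37.0%). Because the arrays hold bulk tissue, fewer cells of a type and less RNA per cell cannot be told apart in any of these differences. Sex-linked genes also differed between the genotypes, as given below, so sex and genotype cannot be told apart in any genotype difference.

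Cdh7, a type II cadherin of restricted neural territories, had signals of 52.1 and 59.9 in BG +/- and 178 and 187 in BG -/-. In cortex it gave 77.1 and 63.9 in Ctx +/- and 80.3 and 88.0 in Ctx -/-. The BG -/- arrays stood above the other 6 arrays, and the BG genotypes did not overlap. The log2 change in BG was 1.46 ± 0.14 (SE; limma adjusted p = 0.00481), the largest among the members. Its other 2 probe sets passed as well, with log2 changes of 2.24 and 1.30.

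Cdh10, another type II cadherin of the brain, gave 93.9 and 110.0 in BG +/- and 162 and 204 in BG -/-. Its cortical signals were higher, at 281 and 274 in Ctx +/- and 271 and 294 in Ctx -/-. The log2 change in BG was 0.75 ± 0.15 (limma adjusted p = 0.0291), and BG -/- still lay below all 4 cortical arrays. Of its other probe sets, 1 passed at 0.54 and 1, the dimmest, gave -0.07.

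Cdh11, a type II cadherin known from mesenchyme and bone as well as brain, gave 294 and 332 in BG +/- and 438 and 463 in BG -/-. Cortical signals were 553 and 508 in Ctx +/- and 496 and 499 in Ctx -/-, so BG -/- again lay between BG +/- and the cortical arrays. The BG change of 0.51 ± 0.12 had a limma adjusted p of 0.0498, just inside the threshold, and its second probe set gave 0.29 without passing. Under 11 other settings of processing or probe sets, this call held in 3 and was lost in 8, with the direction kept. It was also lost whichever array was left out.

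**Figure D1:**
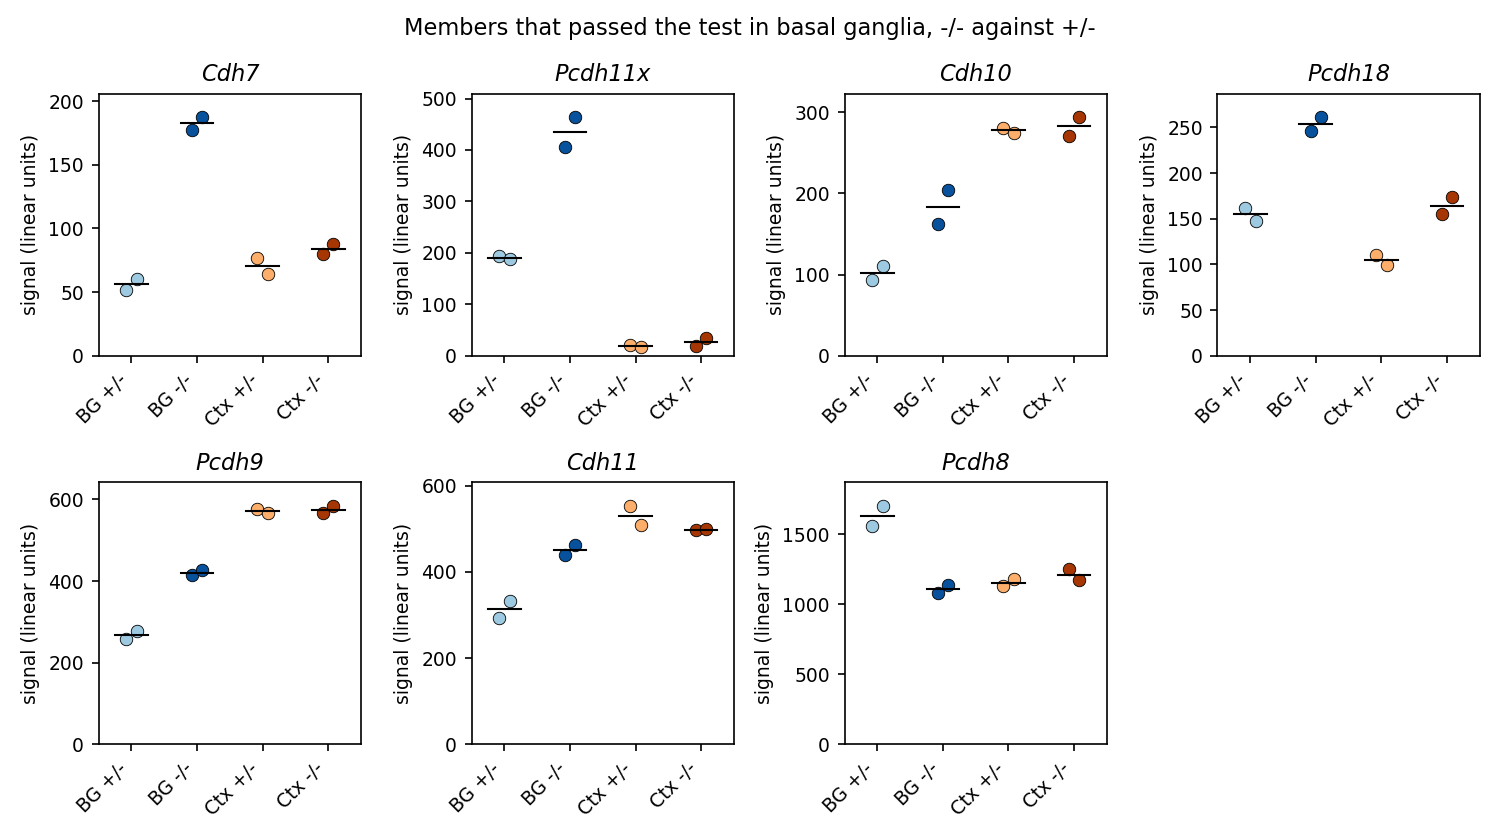
Signal (linear units, each axis from 0) of the 7 members that passed in basal ganglia; points are the 2 arrays of each group and lines their mean. In every panel the 2 BG -/- arrays lie on one side of the 2 BG +/- arrays, above them for 6 genes and below them for Pcdh8.

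Of the 9 type II cadherins tested, the 3 above were higher in BG -/- and 6 did not pass. The share higher was 33.3%, against 4.76% of all genes. The median change of the 9 was 0.51, and 5 had BG -/- arrays that lay above both BG +/- arrays, as 23.8% of all genes did. Cdh20, whose signals were low, had 27.0 and 23.5 in BG +/- and 45.1 and 50.8 in BG -/-, a change of 0.63 that did not pass (limma adjusted p = 0.0700). Cdh6 gave 0.51 (adjusted p = 0.118), with signals from 62.9 to 166 over all arrays, and its second probe set gave -0.14. Cdh8 (141 to 228 over all arrays) and Cdh9 (20.2 to 86.2) had BG changes of 0.10 and 0.54, and Cdh22, a cadherin first described in pituitary and brain, had -0.31. None of these 3 passed. Cdh5, the endothelial cadherin, ranged from 21.9 to 60.9, with 0.26 in BG.

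None of the 3 type I cadherins tested passed, and their median change in BG was -0.12. Cdh2 (N-cadherin), which holds neuroepithelial cells together at the ventricular surface, gave 2385 and 2358 in BG +/- and 2428 and 2570 in BG -/-, a change of 0.07 ± 0.11. Cdh4 (R-cadherin) ranged from 186 to 344 with a BG change of -0.12, and Cdh15 (M-cadherin, known from muscle) ranged from 20.4 to 118 with -0.27. Among the other cadherins, Cdh13 (T-cadherin, which is anchored by a lipid and has no cytoplasmic tail) had -0.02 ± 0.14 in BG, and Cdh23, a component of hair cell tip links, and the kidney cadherin Cdh16 did not pass.

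The delta protocadherins held the remaining genotype differences, with 3 of 8 higher, 1 lower and a median change of 0.36. The shares were 37.5% higher and 12.5% lower, against 4.76% and 3.05% of all genes. The BG -/- signals of 7 of the 8 lay above both BG +/- arrays, as did those of 23.8% of all genes. Pcdh11x, an X-linked delta protocadherin, gave 193 and 188 in BG +/- and 406 and 463 in BG -/-, but only 21.3 and 17.4 in Ctx +/- and 19.003 and 33.7 in Ctx -/-. Its BG change was 1.12 ± 0.19 (limma adjusted p = 0.0179), and all 4 BG arrays stood far above all 4 cortical arrays. A second probe set gave 0.77 without passing.

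Pcdh18 gave 162 and 148 in BG +/- and 246 and 261 in BG -/-, and 109.9 and 99.7 in Ctx +/- and 155 and 174 in Ctx -/-. The -/- arrays were thus above the +/- arrays in both regions. The change passed in BG (0.66 ± 0.13, limma adjusted p = 0.0264) and not in Ctx (0.58 ± 0.13, adjusted p = 0.237). Its other 2 probe sets gave 1.03, which passed, and 0.54 in BG.

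Pcdh9 gave 258 and 277 in BG +/- and 414 and 426 in BG -/-, against 576 and 567 in Ctx +/- and 565 and 584 in Ctx -/-. As for Cdh10 and Cdh11, BG -/- lay between BG +/- and the cortical arrays. The BG change was 0.62 ± 0.11 (limma adjusted p = 0.0229), and the other 2 probe sets gave 0.39 and 0.50 without passing.

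Pcdh8, known as arcadlin for its induction by neuronal activity, went the other way. Its signals were 1559 and 1704 in BG +/- and 1082 and 1136 in BG -/-, and between 1132 and 1253 on the 4 cortical arrays. The BG change was -0.55 ± 0.12 (limma adjusted p = 0.0361). This probe set is of a type whose probes can also match other transcripts, and the second probe set, with signals of 1004 and 947 in BG +/- and 686 and 700 in BG -/-, gave -0.48 without passing.

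The other 4 delta protocadherins tested did not pass by the representing probe set. Pcdh19, X-linked and known for an epilepsy of heterozygous females, gave 675 and 603 in BG +/- and 743 and 868 in BG -/-, a change of 0.33, while its other 2 probe sets passed at 0.61 and 0.54. Pcdh17, a protocadherin of corticobasal ganglia circuits, gave 480.0 and 458 in BG +/- and 615 and 619 in BG -/-, with a change of 0.39 (adjusted p = 0.0875). Pcdh10, required for the growth of striatal axons, had a change of 0.20, and Pcdh7, which ranged from 184 to 297 over all arrays, had 0.27. Of the remaining protocadherins outside the clusters, Pcdh15, Pcdh20 (28.3 to 69.3) and the endothelial Pcdh12 (19.3 to 55.7) had BG changes of 0.09, 0.29 and -0.11 and did not pass.

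**Figure D2:**
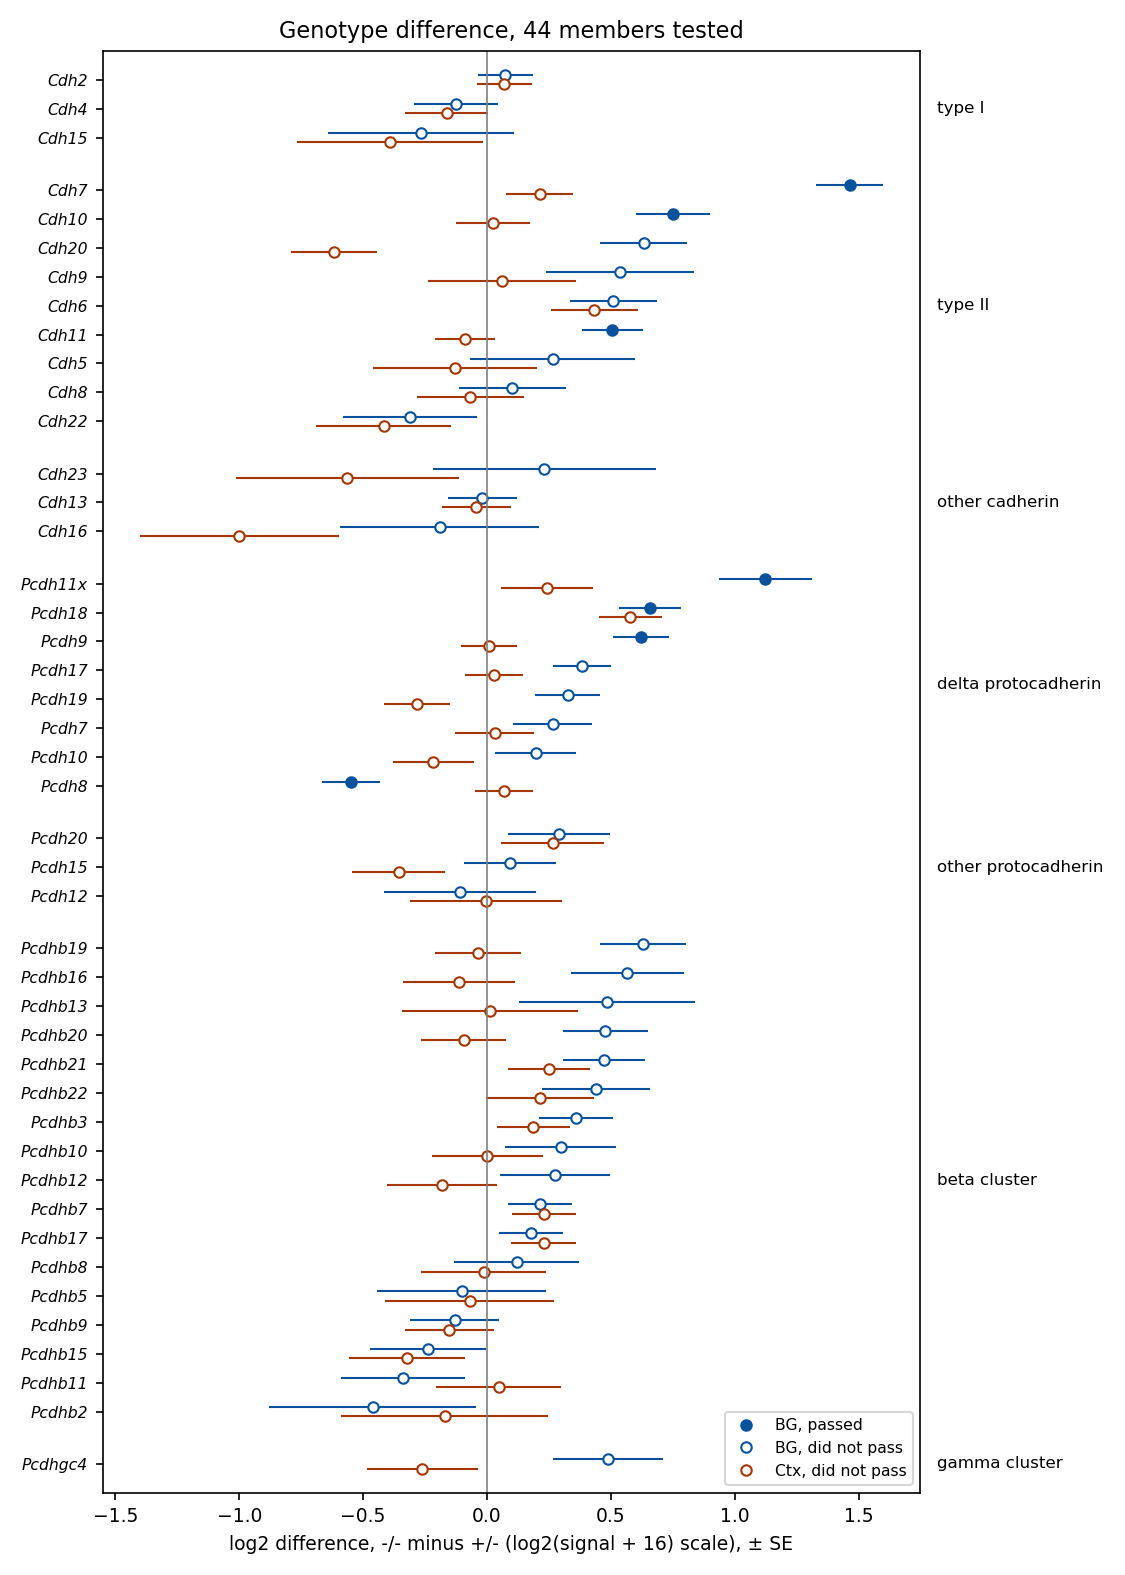
Log2 difference of -/- minus +/- in BG (blue) and Ctx (brown) for the 44 members tested, by class, with SE bars; filled points passed at adjusted p under 0.05. The 7 filled points are all in BG, from 1.46 for Cdh7 to -0.55 for Pcdh8.

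Across all 74 tested probe sets of these genes, 12 were higher and 1 was lower in BG -/-, as drawn in the plot of all probe sets. The share over all probe sets kept was not computed, so these counts are a description only. The 12 included all 3 probe sets of Cdh7 and a pair each of Pcdh18, Cdh10 and Pcdh19. Probe sets of 1 gene share a transcript and are no further replicates.

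**Figure D3:**
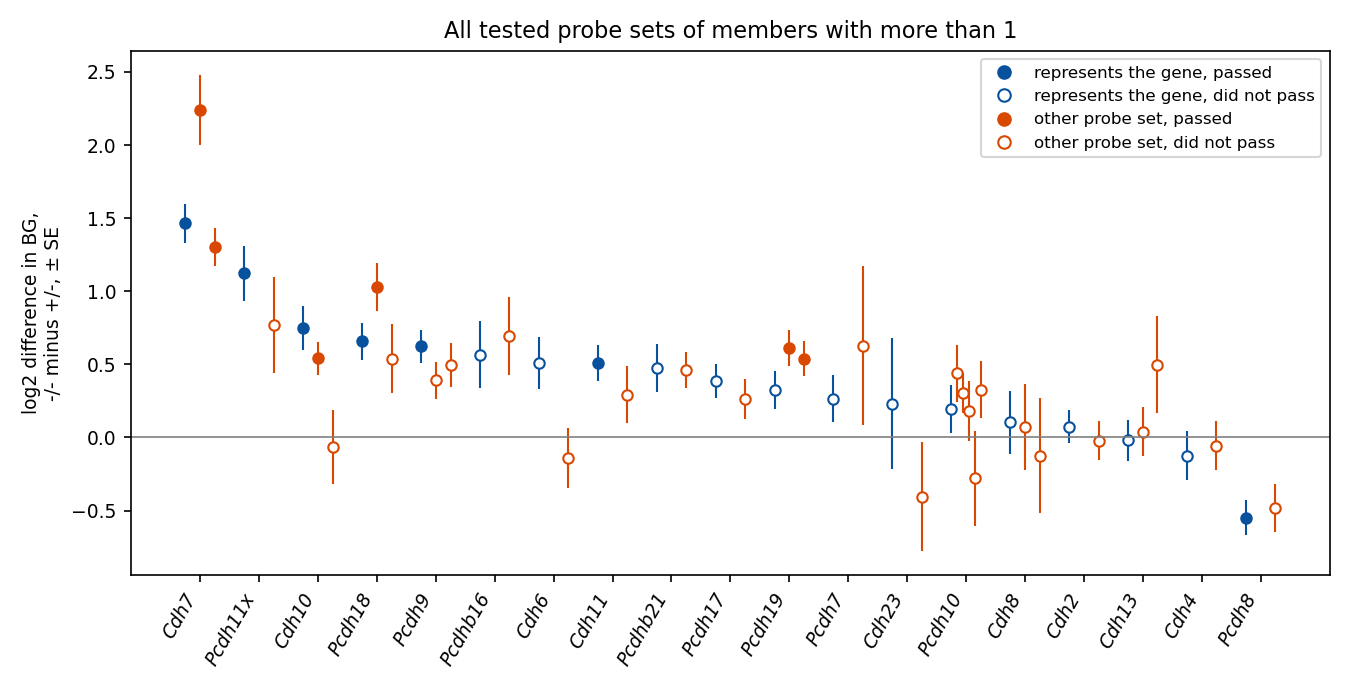
Log2 difference in BG (-/- minus +/-, ± SE) of each tested probe set, for the members with more than 1; blue marks the probe set that represents the gene, orange the others, filled points those that passed. All 3 points of Cdh7 are filled (1.46, 2.24 and 1.30), while Pcdh19 passed only by its other 2 probe sets (0.61 and 0.54).

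None of the 17 tested genes of the beta cluster passed in BG. Their median change was 0.28, 12 of 17 changes were positive (70.6%, against 41.8% of all genes), and the BG -/- arrays lay above both BG +/- arrays for 9 and below them for 2 (23.8% and 37.0% for all genes). The highest signals were those of Pcdhb17 (137 to 183 over all arrays, BG change 0.18), Pcdhb20 (103 to 194, 0.48) and Pcdhb21 (80.0 to 176, 0.47). Pcdhb19 came closest, with 47.5 and 33.4 in BG +/- and 68.0 and 73.3 in BG -/- (0.63 ± 0.17, adjusted p = 0.0689), and was singled out after its values were seen. Beta genes are close copies of one another and lie side by side on chromosome 18, so a probe set of 1 gene may also read its neighbours, and the 17 genes are not independent. The single gamma gene tested, Pcdhgc4, gave 74.1 and 97.0 in BG +/- and 127 and 124 in BG -/-, a change of 0.49 ± 0.22 (adjusted p = 0.209). The alpha cluster was read only by 6 probe sets that name several alpha genes at once, and none of the 6 passed in either genotype comparison.

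**Figure D4:**
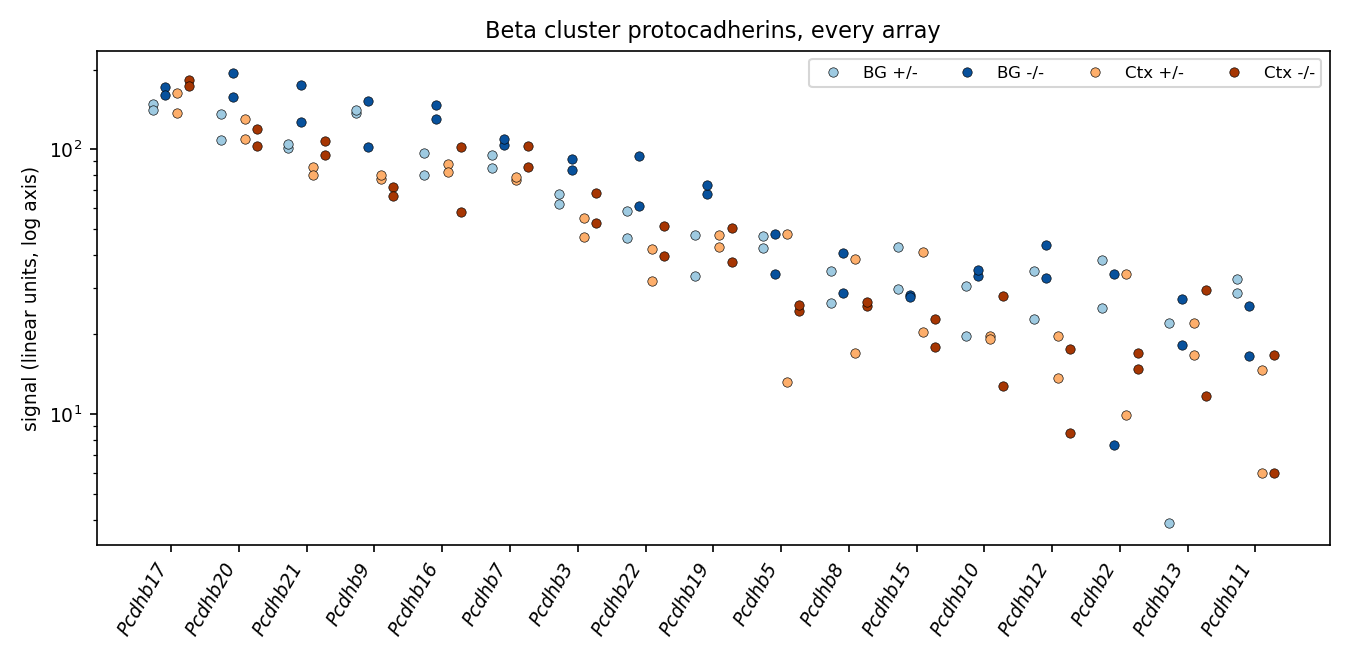
Signal of every array (linear units on a log axis) for the 17 tested beta cluster genes, coloured by group. BG -/- points lie above both BG +/- points for 9 of the 17 genes, and many genes have arrays below 50.

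In cortex none of the 44 passed between -/- and +/- (0%, against 0.205% of all genes tested). By limma 4 had an unadjusted p under 0.05, where 8.60% of all genes did. The median change of the 44 was -0.02, against -0.03 for all genes, and the arrays of the genotypes did not overlap for 8 members upwards and 6 downwards (18.2% and 13.6%, against 15.9% and 23.4% of all genes). The smallest p belonged to Pcdh18, given above. Cdh20 followed, with 41.6 and 31.1 in Ctx +/- and 22.7 and 13.8 in Ctx -/- (-0.62, adjusted p = 0.333).

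The difference between the BG and Ctx genotype effects was itself tested, as an interaction term of the same limma fit. None of the 44 passed (0%, against 0.338% of all genes), and 9 had an unadjusted p under 0.05, where 15.3% of all genes did. Cdh7 came closest, with a difference of 1.25 ± 0.19 (adjusted p = 0.0542), and Cdh20 followed with 1.25 ± 0.25 (adjusted p = 0.0815). In Cdh20 both -/- arrays lay above both +/- arrays in BG and below them in Ctx. The same held for Cdh11, Pcdh10 (0.41, adjusted p = 0.402) and Pcdh19 (0.61, adjusted p = 0.179), the last with 344 and 354 in Ctx +/- and 291 and 276 in Ctx -/-. For Pcdh9, Pcdh8, Cdh10, Cdh11 and Pcdh11x the differences were 0.61, -0.62, 0.73, 0.59 and 0.88, with adjusted p from 0.130 to 0.172, and for Pcdh18 the difference was 0.08 (adjusted p = 0.851). A change that passed in BG and not in Ctx is therefore not shown to differ between the regions.

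The regions differed in more of these genes than the genotypes did. Between BG +/- and Ctx +/-, 8 members were higher in BG and 4 lower (27.3%, against 24.8% of all genes; 18.2% against 14.0% for higher and 9.09% against 10.7% for lower). Between BG -/- and Ctx -/-, 11 were higher and 3 lower (31.8%, against 18.7%; 25% against 11.4% and 6.82% against 7.25%). With centred arrays the -/- counts were 10 and 3, where 19.8% of all genes were called. The share of higher among all genes called there moved from 61.2% to 48.2%. The share in +/- was thus near that of all genes. Arrays of the regions did not overlap for 19 members upwards and 9 downwards in +/- (43.2% and 20.5%, against 39.2% and 25.8% of all genes), and for 29 and 9 in -/- (65.9% and 20.5%, against 40.1% and 30.9%). These comparisons use the same BG arrays as the genotype comparison, so their values are set side by side and are not independent of it. In all, 16 members passed in at least 1 of the region comparisons, 10 of them in both and in the same direction, 2 in +/- only and 4 in -/- only. The other 28 tested members passed in no comparison.

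Delta protocadherins made up 6 of the 8 members higher in BG +/- and 5 of the 11 higher in BG -/-. Pcdh11x had the largest regional difference, 2.55 ± 0.19 in +/- and 3.43 ± 0.19 in -/- (limma adjusted p = 0.000585 and 0.000250). Pcdh10 gave 364 and 354 in BG +/- and 367 and 466 in BG -/-, against 104 and 103 in Ctx +/- and 98.2 and 76.2 in Ctx -/-. Its regional differences were 1.65 and 2.07 (adjusted p = 0.00143 and 0.000735), and its other 5 probe sets had the same sign in both genotypes, 3 of them passing.

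Pcdh17, with 219.9 and 229 in Ctx +/- and 242 and 217 in Ctx -/-, was higher in BG by 1.01 in +/- and 1.37 in -/- (adjusted p = 0.00236 and 0.000968). Pcdh19 was higher in BG by 0.84 and 1.45 (adjusted p = 0.00651 and 0.00125), and for both genes every BG array stood above every cortical array. Pcdh18 was higher in BG by 0.50 and 0.58 (adjusted p = 0.0322 and 0.0256), but in +/- its other 2 probe sets gave -0.33 and -0.19, so the direction there rests on 1 probe set.

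Among type II cadherins, Cdh22 was higher in BG, with 108 and 104 in BG +/- and 78.6 and 86.5 in BG -/-, against 40.9 and 24.7 in Ctx +/- and 11.6 and 31.0 in Ctx -/-. Its regional differences were 1.34 and 1.45 (limma adjusted p = 0.0153 and 0.0155). Cdh7 and Cdh20 passed in -/- only, at 0.99 and 0.91 (adjusted p = 0.00522 and 0.0167), and in +/- gave -0.26 and -0.34. Pcdh15, a tip link protocadherin, also passed in -/- only, with 41.5 and 45.7 in BG -/- and 11.5 and 22.9 in Ctx -/- (0.87, adjusted p = 0.0248). Its +/- signals were 40.4 and 39.3 in BG and 22.5 and 29.5 in Ctx, which did not overlap either.

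The members lower in BG were Cdh10, Pcdh9, Cdh11 and Cdh13. In +/- the differences were -1.32 for Cdh10, -1.05 for Pcdh9, -0.73 for Cdh11 and -0.69 for Cdh13 (limma adjusted p = 0.00223, 0.00184, 0.00818 and 0.0149). In -/- they were -0.59 for Cdh10, -0.44 for Pcdh9, -0.14 for Cdh11 and -0.67 for Cdh13, with adjusted p = 0.0398, 0.0416, 0.459 and 0.0216. Cdh13 gave 178 and 151 in BG +/- and 151 and 173 in BG -/-, against 274 and 277 in Ctx +/- and 251 and 283 in Ctx -/-, so every BG array lay below every cortical one. The second probe set of Pcdh9 gave 0.04 in -/-. Of the other 2 tested probe sets of Cdh10, only 1 had the same sign in +/-, and it passed as well. Pcdh8 passed in +/- only, at 0.49 (adjusted p = 0.0274), and gave -0.13 in -/-.

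Cdh2 did not pass by its representing probe set, at -0.31 in both genotypes, with signals of 2941 and 2957 in Ctx +/- and 3093 and 3102 in Ctx -/-. Its second probe set passed in both, at -0.66 and -0.63. In the beta cluster, Pcdhb9 was higher in BG in both genotypes, with 137 and 140.5 in BG +/- against 77.6 and 80.4 in Ctx +/-, and 102 and 153 in BG -/- against 72.3 and 66.8 in Ctx -/- (0.70 and 0.73, adjusted p = 0.0323 and 0.0371). Pcdhb12 passed in -/- only, with low signals of 43.4 and 32.6 in BG -/- and 8.52 and 17.7 in Ctx -/- (0.90, adjusted p = 0.0371), and gave 22.8 and 34.7 in BG +/- and 19.7 and 13.6 in Ctx +/-. Of the 17 beta genes, 14 differences were positive in +/- (82.4%, against 59.7% of all genes) and 16 in -/- (94.1%, against 55.6%). Among the alpha probe sets, which name several genes each, 1 was higher in BG in both genotypes (0.74 and 0.95) and a second in +/- (1.25).

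**Figure D5:**
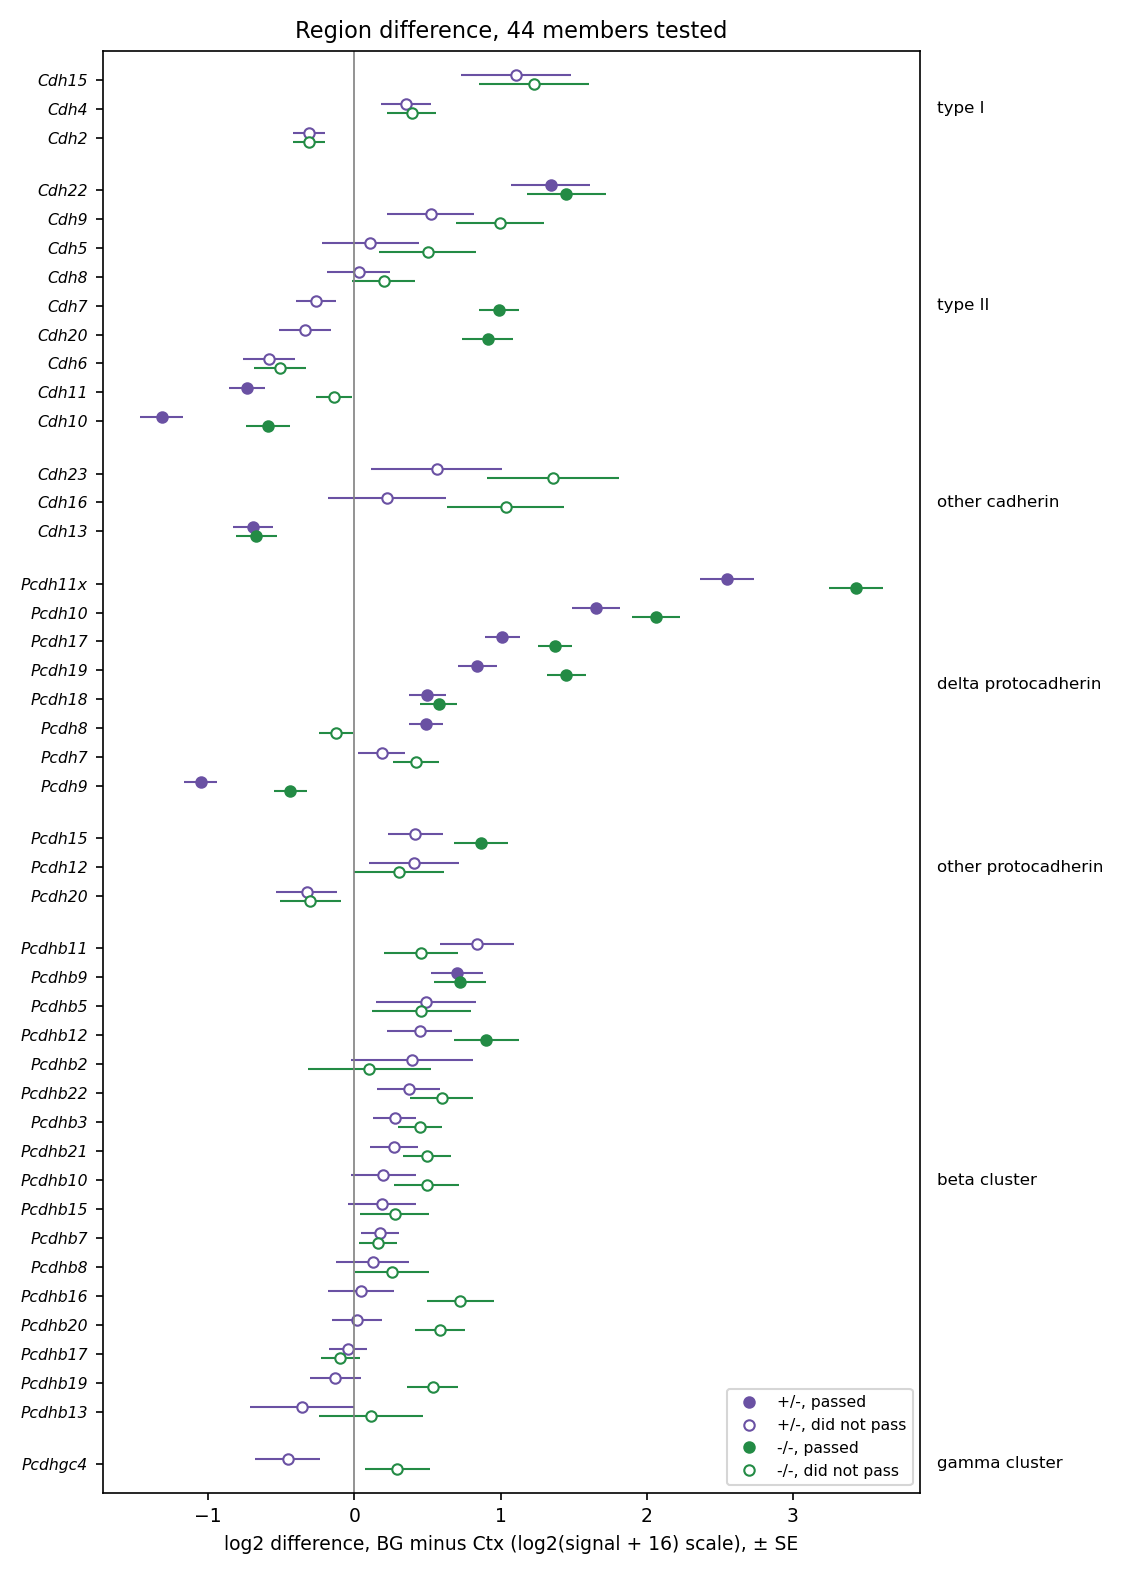
Log2 difference of BG minus Ctx in +/- (purple) and -/- (green) for the 44 members tested, by class, with SE bars; filled points passed at adjusted p under 0.05. Pcdh11x lies farthest to the right (2.55 and 3.43) and Cdh10 in +/- farthest to the left (-1.32).

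Leaving out 1 array at a time left 1 array in a group and weakened the BG genotype result. Most of the 7 no longer passed without a BG array or a Ctx -/- array, where fewer of all genes passed too. None of the 7 passed on every such fit, while the direction of all 7 held on every one. Over these 8 fits the BG change was 1.39 to 1.54 for Cdh7, 1.03 to 1.22 for Pcdh11x and 0.60 to 0.90 for Cdh10. It was 0.60 to 0.72 for Pcdh18, 0.57 to 0.67 for Pcdh9, 0.42 to 0.59 for Cdh11 and -0.61 to -0.49 for Pcdh8. With no filter on dim probe sets 3 of 56 members passed, where 2.92% of all genes did. With only the 4 BG arrays 2 of 44 members passed, where 2.08% of all genes did. Of the regional calls, 7 in +/- (Pcdh9, Pcdh10, Pcdh11x, Pcdh17, Pcdh19, Cdh10 and Cdh11) and 5 in -/- (Pcdh10, Pcdh11x, Pcdh17, Pcdh19 and Cdh7) held whichever array was left out. Each other regional call was lost in at least 1 of the fits with 1 array left out. The call of Pcdh8 in +/- was lost in all of them. Where a regional call was lost, a smaller share of all genes passed in that comparison than with all 8 arrays. Without a Ctx +/- array a larger share passed between the -/- regions.

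Sex-linked genes differed between the genotypes. All 4 tested passed in both regions, with Xist higher and the 3 Y-linked genes lower in -/-. Xist gave 34.2 and 42.4 in BG +/- and 2340 and 2519 in BG -/-. In cortex it gave 62.6 and 67.5 in Ctx +/- and 2457 and 2363 in Ctx -/-. Sex and genotype therefore cannot be told apart for any member, autosomal or X-linked. The X-linked members tested were Pcdh11x and Pcdh19. Of all 445 tested genes on chromosome X, 13.0% were higher in BG -/-, against 4.76% of all genes. In Ctx -/- 0.449% of them were higher, against 0.022% of all genes. In Ctx, Pcdh11x and Pcdh19 had genotype changes of 0.24 and -0.28 and did not pass (adjusted p = 0.725 and 0.564).

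Summed signals of some cell type marker lists also differed between the groups. Of the 11 basal ganglia anlage markers, which include the targeted Dlx1 and Dlx2, 6 were lower in BG -/- and none higher, and their summed signal was 8163 to 8435 in BG +/- and 4266 to 4323 in BG -/-. It was 1280.1 to 1386 in Ctx +/- and 594 to 631 in Ctx -/-. Of the 11 cortical markers, 3 were lower in BG -/- and none higher, with sums of 4759 to 4815 in BG +/- and 3819 to 3830.4 in BG -/-, and of 12281 to 12623 in Ctx +/- and 12752 to 12992 in Ctx -/-. The summed signal of red blood cell genes was 6061 to 6365 in BG +/-, 3161 to 3328 in BG -/-, 2056 to 2291 in Ctx +/- and 1458 to 1672 in Ctx -/-. Diencephalic and other neighbouring-brain genes summed to 562 to 595, 928 to 969, 279 to 437 and 315 to 333 in the same order, with 2 of 7 higher in BG -/-. Choroid plexus genes summed to 12136 to 14015 in Ctx +/- and 47.3 to 117 in Ctx -/-, with 2 of 6 lower there, and their defining gene Ttr fell to 1.11 and 0.701. In BG they summed to 176 to 201 in +/- and 229 to 234 in -/-, with 1 of 6 higher. Of 9 endothelial and mural genes 1 was higher in BG -/-, of 7 meningeal genes 1 was lower, and of 8 microglial genes none passed. Of all genes, 4.76% were higher and 3.05% lower in BG -/-, and 0.183% lower in Ctx -/-. A single call in a short list is not read as a shift of that cell type. The part of these cell types in the cadherin differences was not tested.

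Genes that work with cadherins, listed from textbook knowledge, were compared in the same fit. Of 27 tested catenins and other partners, a list that also holds nectins, 1 was lower in BG -/- and none higher. That is 3.7% against 7.82% of all genes called. The gene was Nectin3, a nectin of adherens junctions, with 367 and 382 in BG +/- and 263 and 215 in BG -/- (-0.62 ± 0.13, limma adjusted p = 0.0361). Of 16 tested atypical and desmosomal members of the superfamily, 1 was higher (6.25%, against 4.76% of all genes): the calsyntenin Clstn2, with 219 and 202 in BG +/- and 371 and 345 in BG -/- (0.73 ± 0.13, adjusted p = 0.0232). Clstn2 gave 858 and 916 in Ctx +/-, so BG -/- again lay between BG +/- and cortex. None of either list passed between the cortical genotypes.

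Of 18 tested regulators of cadherin and protocadherin genes or proteins, 3 were higher in BG -/- and none lower (16.7% higher, against 4.76% of all genes). Stag1 and Smc3 encode cohesin subunits, and Smchd1 a chromatin protein that represses clustered protocadherins. Stag1 gave 279 and 335 in BG +/- and 603 and 634 in BG -/- (0.98 ± 0.14, limma adjusted p = 0.0118), Smchd1 gave 336 and 385 against 620.2 and 626 (0.77 ± 0.13, adjusted p = 0.0171), and Smc3 gave 297 and 293 against 480.3 and 512 (0.72 ± 0.13, adjusted p = 0.0247). For each of the 3 the BG -/- arrays lay above both BG +/- arrays.

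Between the regions, 2 of the 27 partners were higher and 4 lower in BG +/- than in Ctx +/-, and 1 higher (Ctnna2, the neuronal alpha catenin, 0.74) and 1 lower (Afdn, afadin, -0.50) in -/-. That is 22.2% of the partners in +/- and 7.41% in -/-, against 24.8% and 18.7% of all genes. In the superfamily the counts were 2 higher and 4 lower in +/- (37.5% called), and 2 higher and 5 lower in -/- (43.8%). Celsr1, of planar cell polarity, was lower in BG in both genotypes (-1.37 and -1.60), as were Clstn2 (-2.00 and -1.29) and Fat3 (-1.07 and -0.69), while Clstn3 was higher (0.62 and 1.28). Of the regulators, 1 was higher and 8 lower in +/-, and 2 higher and 5 lower in -/-. The lower ones made up 44.4% in +/- and 27.8% in -/-, against 10.7% and 7.25% of all genes. Zeb2 (-1.74 and -1.34) and Pax6 (-1.26 and -1.35) were lower in BG in both genotypes, and Zeb1, a repressor of E-cadherin, was higher (0.80 and 0.78).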

How the data were processed

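Per the labels, total RNA of 8 samples was hybridised to arrays, 1 array each. The deposited values are intensity values on a linear scale, 1 summarised signal for each of 45101 probe sets. Every array had a 2% trimmed mean of 150.00, so the authors' values had been scaled. The software is not given in the sources used here. The number of arrays limits the precision. Median signals were 38.0 to 51.6 and 24.6% to 34.1% of an array's signals lay below 16.

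Here 64 control probe sets were left out. The platform annotation gave 1 symbol for 34945 of the other 45037, several for 932 and none for 9160. Values were analysed as log2(signal + 16), which understates differences of dim genes. The lowest 30% by mean were left out, which kept 31526 probe sets for 13627 genes. One model of 4 group means was fitted with limma 3.58.1 in R 4.3.3 (lmFit, eBayes, 4 residual and 2.76 prior degrees of freedom), with two-sided tests adjusted by Benjamini-Hochberg over all probe sets kept and a threshold of 0.05. The fit was tested on simulated data.

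The members, lists and tests were chosen with earlier results of these data known. Every member that passed in any of 5 comparisons is named with its values. Of the others, up to 3 of each class with the highest mean are named, and of the partner lists at most the 4 with the smallest p per comparison. Pcdhb19, Cdh5, Cdh16, Cdh23 and the untested members are named in addition. Alternatives were other offsets, filters and scalings, a variance trend, fewer arrays, a replicate block, other probe sets and each array left out.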

Additional observations from a re-analysis of the deposited data

How the results depend on the processing

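Of 33 member values that passed, with 617 values under the alternatives, 453 kept direction and call, 161 kept the direction without passing and 3 reversed. The 3 were Pcdh18 between the +/- regions with the mean of its probe sets (-0.0075) or its second probe set (-0.33), and Pcdh9 between the -/- regions with its second probe set (0.041); these are other probes of the same genes. Among 3319 alternative values of members that had not passed, 64 came to pass. In BG, where 7 passed, 3 did with no filter on dim probe sets, 2 with only the 4 arrays compared, 4 of 19 by the second probe set, and 0 to 6 with 1 array left out. For the difference of genotype effects 0 passed, against 0.338% of all genes. At an offset of 64, 2 passed (2.22% of all genes), and with the lowest 50% left out 1 of 29 did (3% of all genes). With a variance trend 5 passed (5.34% of all genes), and with the mean of all probe sets 1 did (Cdh7, with 0.169% of all genes). Between the regions, 7 to 12 passed in +/- and 5 to 16 in -/- with 1 array left out, and 8 in -/- after quantile normalization. Among all genes under the same setting, 16.6% passed between the -/- regions after quantile normalization. In BG 8.75% did so by the second probe set. With 1 array left out the share of all genes passing changed too, as described above, so these member counts partly follow it. In Ctx 0 members passed under every alternative. With the replicate block, 4 passed in BG (all higher), where 4.38% of all genes did. With it 12 passed between the +/- regions and 12 between the -/- regions, against 21.6% and 15.9% of all genes. The numbers only name the arrays: differences between replicates 2 and 3 correlated at -0.0262 to 0.0218 between groups, so the block pairs nothing known. Centring each array on its median moved the median BG change of all genes from -0.08 to -0.18 and that of the members from 0.27 to 0.17. The cause of these shifts was not tested. Dim members, such as most of the beta cluster, are limited by signal over background.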
